A study of Caenorhabditis elegans with 2 samples.

Results

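Of the 12024 peaks called on both libraries together in a ChIP-seq experiment on ZTF-11, 1872 lay on chromosome IV, and 536 of these had their summit inside the 2 large stretches of that chromosome that hold most C. elegans piRNA genes. The members were chosen by position alone, on the ce11 build. The first cluster was taken as chromosome IV from 4500000 to 7000000, which spans 2.5 Mb and held 262 peaks, and the second cluster as 13500000 to 17200000, which spans 3.7 Mb and held 274. The other 1336 peaks of chromosome IV served as the comparison. The data came from whole embryos of mixed stages and pooled sexes of strain OP236, which carries unc-119(ed3) III and the integrated array wgIs236 with eGFP-tagged ztf-11. All samples share this genotype, so there was 1 group with 2 libraries, described as biological replicates, and no second condition. The labels name ztf-11 as the target of the antibody and do not state which tissue or promoter drives the tagged protein. With 1 group there is no test between conditions; the error given is the value in each replicate or an exact 95% interval for counting error, and peaks are not replicates of a condition.

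ZTF-11, a zinc finger transcription factor, is the worm counterpart of the vertebrate Myt1 proteins, which promote neuronal fate in part by repressing other fates. piRNAs are short RNAs that guide the Piwi-class Argonaute PRG-1 in the germline, where they silence transposons and other foreign sequences. In C. elegans most of them are made from very small, separate transcription units that carry a short conserved motif, with TGTTTCA as its core, upstream of the piRNA, and that lie between and inside ordinary coding genes. The annotation bore out the name of the regions: 14204 of 15363 annotated piRNA genes (92.5%) lay inside them, 2816 in the first cluster and 11388 in the second, against 510 on the rest of chromosome IV. Of the 14204, 5355 lay within the body of a protein-coding gene. The clusters also held ordinary genes, at 192 protein-coding genes per Mb in the first and 124 per Mb in the second, against 207 on the rest of the chromosome.

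The sequences shown first are those on which the motif counts turn, all from the WBcel235 reference, which is the same assembly as ce11, and all written 5′ to 3′. The first 2 are the strongest members whose summit lay inside a piRNA gene that has the upstream motif. For these, the 60 bases before the gene are followed by the gene itself, on the strand of the gene, and capitals mark TGTTTCA and then the piRNA gene.
21ur-4691, chrIV:16674888-16674968, + strand: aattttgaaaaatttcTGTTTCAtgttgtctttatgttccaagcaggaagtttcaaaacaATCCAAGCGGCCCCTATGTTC
21ur-2891, chrIV:14378144-14378224, − strand: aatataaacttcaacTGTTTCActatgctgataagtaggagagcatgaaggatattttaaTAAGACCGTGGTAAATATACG
Further windows cover the 101 bases centred on summits of thresholded members, named by the protein-coding gene with the nearest 5′ end. In the next 4, capitals mark GAGAGAG or its reverse complement, with overlapping matches joined.
rho-1 upstream site, chrIV:16492503-16492603, + strand: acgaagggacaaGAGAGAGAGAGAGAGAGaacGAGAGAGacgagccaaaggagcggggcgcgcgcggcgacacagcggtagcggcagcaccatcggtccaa
lin-66 promoter, chrIV:13887696-13887796, + strand: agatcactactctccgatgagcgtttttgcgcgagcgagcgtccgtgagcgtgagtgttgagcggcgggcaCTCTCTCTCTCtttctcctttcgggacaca
hil-7 promoter, chrIV:6645988-6646088, + strand: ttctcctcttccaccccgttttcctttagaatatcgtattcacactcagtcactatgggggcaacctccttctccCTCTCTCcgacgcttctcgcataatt
set-15 upstream site, chrIV:4781234-4781334, + strand: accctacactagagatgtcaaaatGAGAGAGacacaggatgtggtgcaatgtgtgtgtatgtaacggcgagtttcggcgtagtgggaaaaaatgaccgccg
In the next 4, capitals mark AGACGCA or its reverse complement, a word picked out after these windows had been seen.
fkh-7 intron, chrIV:5600450-5600550, + strand: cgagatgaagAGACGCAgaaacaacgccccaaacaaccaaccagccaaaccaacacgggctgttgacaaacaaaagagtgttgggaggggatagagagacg
ntl-11 promoter, chrIV:15471559-15471659, + strand: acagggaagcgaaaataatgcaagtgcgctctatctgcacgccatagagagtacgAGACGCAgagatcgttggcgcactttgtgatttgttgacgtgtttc
zen-4 promoter, chrIV:6117906-6118006, + strand: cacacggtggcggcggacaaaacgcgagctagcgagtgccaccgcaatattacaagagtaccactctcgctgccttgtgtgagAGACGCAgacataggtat
gdi-1 and coq-3 site, chrIV:14794368-14794468, + strand: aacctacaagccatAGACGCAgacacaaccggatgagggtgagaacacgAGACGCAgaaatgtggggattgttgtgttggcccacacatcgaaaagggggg
The jac-1 window held both words, GAGAGAG as its reverse complement first and AGACGCA near its end.
jac-1 intron, chrIV:16024251-16024351, + strand: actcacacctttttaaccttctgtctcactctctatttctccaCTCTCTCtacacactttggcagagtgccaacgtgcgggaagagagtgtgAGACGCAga
In the window over the tRNA gene B0350.t1, capitals mark GGTTCGA, the core of the internal B box of tRNA genes.
tRNA gene B0350.t1, chrIV:5967164-5967264, + strand: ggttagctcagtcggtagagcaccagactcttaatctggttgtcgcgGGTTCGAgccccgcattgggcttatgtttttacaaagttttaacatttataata
The last window is that of the strongest member, next to cel-mir-52, and it held none of the motifs searched.
cel-mir-52 site, chrIV:14033908-14034008, + strand: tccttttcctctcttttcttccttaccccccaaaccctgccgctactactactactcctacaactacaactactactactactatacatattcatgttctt

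Peaks were sparser inside the clusters than on the rest of chromosome IV. The pooled list had 105 peaks per Mb in the first cluster and 74.1 in the second, 86.5 over both, against 118 elsewhere on the chromosome, a ratio of 0.731. In the 12024 strongest peaks of each replicate alone this ratio was 0.802 in replicate 1 and 0.715 in replicate 2, so both replicates gave a lower density inside. The clusters made up 35.4% of the chromosome and held 28.6% of its peaks. The first cluster was close to the stretch between the clusters, which had 109 peaks per Mb in the pooled list. In replicate 1 the first cluster had 113 and that stretch 111, and in replicate 2 they had 97.6 and 114. Per 100 protein-coding genes the order was different: 54.5 peaks in the first cluster and 59.7 in the second lay between 46.6 in the stretch that separates the clusters and 78.4 in the stretch before the first cluster, and the short stretch after the second cluster had 57.5. The peak density of the clusters was therefore low per base, mainly in the second cluster, and within the range of the rest of the chromosome per coding gene.

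The share of thresholded peaks was about the same inside the clusters as on the rest of the chromosome. Under a stricter threshold it was lower inside, but within the interval for counting error. A peak is called thresholded here when the authors' irreproducible discovery rate step kept it, which was the case for 698 of 11998 peaks on the nuclear chromosomes (5.82%). Inside the clusters 27 of 536 peaks were thresholded, 5.04% with an interval of 3.35% to 7.24%, and on the rest of chromosome IV 67 of 1336, 5.01% with an interval of 3.91% to 6.33%. When each replicate was cut to its own 721 strongest peaks among 12024, 28 of 580 peaks (4.83%) in the clusters remained in replicate 1 against 4.86% elsewhere on the chromosome, and 23 of 514 (4.47%) in replicate 2 against 5.27%. All these shares were near the background share of all nuclear peaks. With only peaks at or above the median signal of the thresholded list counted, the share was 1.68% inside (interval 0.771% to 3.16%). On the rest of chromosome IV it was 2.77%, a value inside that interval. By cluster, 14 of 262 peaks (5.34%) and 13 of 274 (4.74%) were thresholded.

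Signal is the authors' value for each peak relative to a control; its scale is not stated, so it was compared only within a list. The median signal was 15.1 in the first cluster, 15.0 in the second and 15.3 on the rest of chromosome IV, and 47.6% of members (interval 43.3% to 51.9%) lay above the median of the other chromosome IV peaks. In replicate 1 that share was 48.6% and in replicate 2 it was 51.6%, on either side of an even split. The strongest member reached 125.5, and the strongest other peak of the chromosome 149.4. Most peaks of the relaxed list are weak, inside the clusters and outside: 38 of 536 members (7.09%) and 82 of the 1336 other chromosome IV peaks (6.14%) had a deposited q-value of at most 0.05, among them all thresholded ones.

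**Figure D1:**
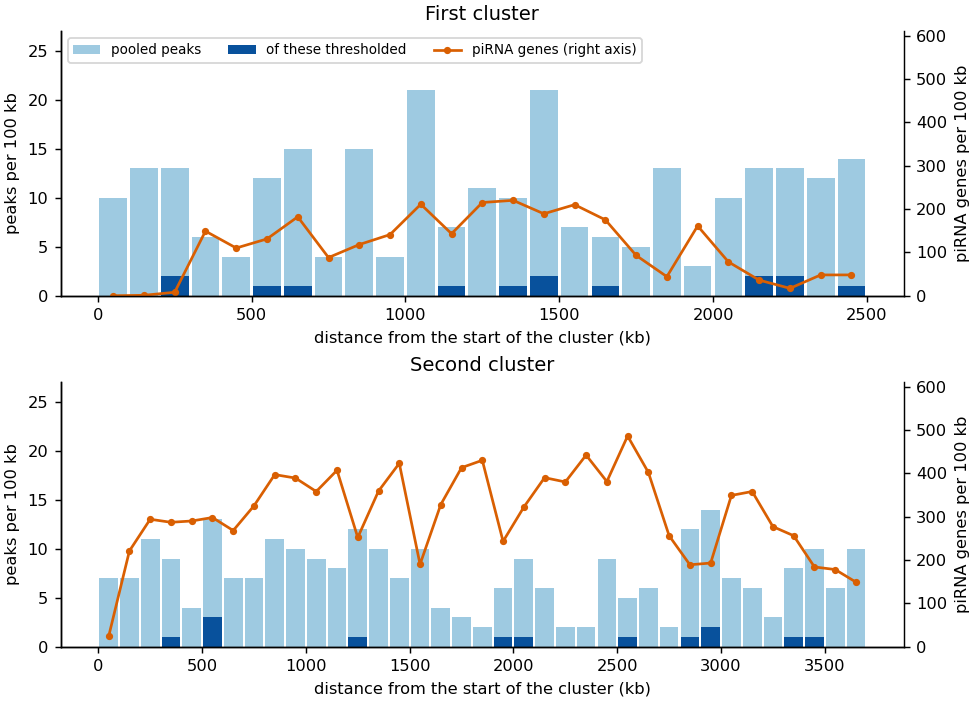
Pooled peaks (light bars), thresholded peaks among them (dark bars) and annotated piRNA genes (line, right axis) in windows of 100 kb, by distance in kb from the start of each cluster. Peaks range from 3 to 21 per window in the first cluster and from 2 to 14 in the second, and piRNA genes reach 220 and 486.

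Along the clusters every window of 100 kb held at least 1 peak. The first cluster had a median of 11 peaks per window, with 2 windows of 21 peaks each, beginning 1000 kb and 1400 kb from its start; these windows held 211 and 189 piRNA genes and only 7 and 9 coding genes. The second cluster had a median of 7 peaks per window and its densest window, 2900 kb from its start, held 14 peaks and 193 piRNA genes. Across the 37 windows of the second cluster, peaks and piRNA genes had a Spearman's rho of −0.361, and across the 25 of the first cluster −0.106. In the second cluster rho was −0.397 in replicate 1 and −0.254 in replicate 2, whereas in the first it was 0.181 in replicate 1 and −0.165 in replicate 2. These are descriptions across neighbouring windows that share libraries and base composition, and the first cluster had no direction common to both replicates.

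In the first cluster the strongest member lay at chrIV:4749862-4750217, 200 bp upstream of Y17G9B.5 in a promoter window (1000 bp upstream to 200 bp downstream of a protein-coding 5′ end) that it shares with rpl-20, which encodes a protein of the large ribosomal subunit. Its signal was 78.1 in the pooled list, 34.7 in replicate 1 and 43.9 in replicate 2. The linker histone gene hil-7 had a pair of thresholded peaks, at chrIV:6645860-6646215 upstream of its 5′ end with 74.97, 38.8 and 36.0 in the same order, and at chrIV:6648519-6648874 downstream of it with 46.4, 28.4 and 17.2. The upstream one was among the 721 strongest peaks of both replicates, whereas the downstream one ranked 309 in replicate 1 and 723 in replicate 2. The promoter peak of usp-4, which encodes a ubiquitin-specific protease, had 56.1 in the pooled list, 34.5 in replicate 1 and 21.0 in replicate 2. An intergenic peak 1012 bp upstream of C06E7.4, inside the non-coding RNA gene C06E7.90, had 48.6, 25.3 and 22.4.

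The other thresholded peaks of the first cluster had pooled signals from 35.3 to 46.0. The peak 4815 bp upstream of unc-44, which encodes an ankyrin needed for axon guidance, had 46.0 in the pooled list, 35.0 in replicate 1 and 10.4 in replicate 2. It was the member with the widest gap between replicates by rank among the 14, at 192 in replicate 1 and 2833 in replicate 2. An intronic peak in fkh-7, a forkhead transcription factor gene, had 42.3, 27.1 and 16.9. The promoter shared by C17H12.2 and vha-8, which encodes a subunit of the proton-pumping V-ATPase, had 41.5, 22.8 and 21.9, close together in both replicates. The promoter shared by C02B10.4 and snpn-1, the snapin homologue, had 39.1, 15.7 and 20.4. The peak over the tRNA gene B0350.t1 had 39.0, 23.9 and 12.4. Lower still were an intergenic peak 1055 bp upstream of set-15, a SET domain gene, with 37.4 in the pooled list, and promoter peaks of prkl-1, the Prickle homologue of planar polarity, with 37.2, and of W03F8.4 with 35.8. The weakest thresholded member of the cluster, with 35.3, lay 259 bp upstream of zen-4, which encodes the kinesin of the central spindle, and 80 bp from the snoRNA gene M03D4.78; it ranked 2548 in replicate 1 and 405 in replicate 2.

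In the second cluster the strongest member of all, at chrIV:14033871-14034061, lay in the non-coding RNA gene Y37A1B.330 and 50 bp from cel-mir-52, a microRNA of the mir-51 family. Its signal was 125.5 in the pooled list, 70.0 in replicate 1 and 62.3 in replicate 2, where it ranked 23 and 22. It was 191 bp wide, the only member narrower than 356 bp, and a further thresholded peak at chrIV:14033984-14034339, with 37.2, overlapped it and was matched by the same peak in each replicate. A separate peak less than 1 kb away, at chrIV:14032920-14033275, had 71.9 in the pooled list, 42.4 in replicate 1 and 29.5 in replicate 2. These 3 peaks lay in one stretch, chrIV:14032920-14034339. Upstream of rho-1, which encodes the RhoA GTPase of cell shape and cytokinesis, were 2 intergenic peaks, 3532 bp and 2727 bp from its 5′ end. The farther one, at chrIV:16492375-16492730, had 83.4, 34.9 and 51.5, and the nearer one, at chrIV:16491570-16491925, had 74.6, 36.6 and 37.4. Both rho-1 sites were among the 721 strongest peaks of each replicate.

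The remaining thresholded peaks of the second cluster ranged from 36.2 to 48.9. An intronic peak in jac-1, the p120 catenin gene of cell junctions, had 48.9 in the pooled list, 28.2 in replicate 1 and 18.1 in replicate 2. The promoter of lin-66, a heterochronic gene, had 45.3, 27.1 and 30.1. Promoter peaks also lay at Y7A9D.1 with 44.5, at arf-6, a small GTPase gene of membrane traffic, with 40.1, at ntl-11, which encodes a subunit of the CCR4-NOT deadenylase, with 38.7, and at gtsf-1, a factor of small RNA pathways, with 36.7. The arf-6 peak had 18.8 in replicate 1 and 19.2 in replicate 2, where it ranked 856 and 540. The ntl-11 peak had 20.8 in replicate 1 and 10.7 in replicate 2, with ranks of 648 and 2626. An intergenic peak 6443 bp upstream of Y105C5A.1 had 38.4 in the pooled list, and 13.0 and 22.4 in the replicates. Its ranks there, 3072 and 386, had the opposite order to those of ntl-11. The weakest, with 36.2, lay in an intron of coq-3, a ubiquinone synthesis gene, 1531 bp upstream of gdi-1, which encodes a Rab GDP dissociation inhibitor.

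**Figure D2:**
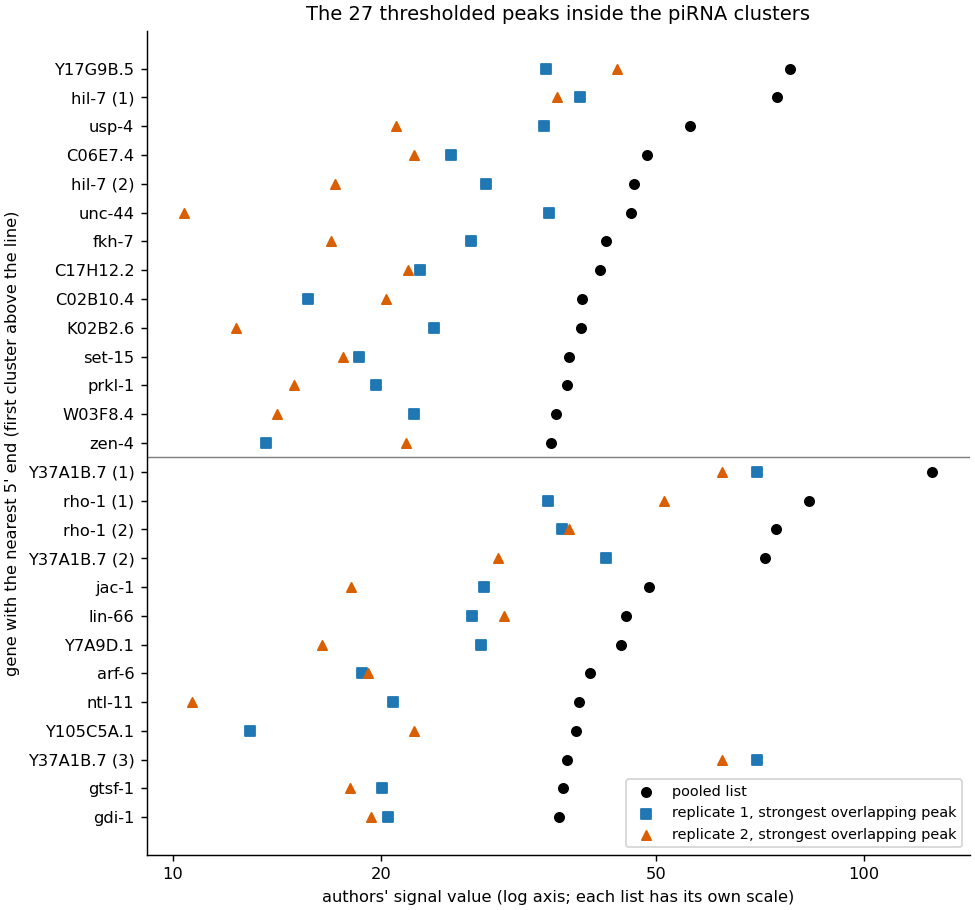
Signal of the 27 thresholded members in the pooled list (circles) and of the strongest overlapping peak in replicate 1 (squares) and replicate 2 (triangles), on a log axis, with each list on its own scale. Pooled values run from 35.3 to 125.5, and the first and last of the 3 sites labelled Y37A1B.7 share the same replicate peaks.

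The summits lay away from piRNA genes more often than the bases of the clusters did. Of the 536 summits, 182 (34.0%, interval 29.95% to 38.1%) were within 250 bp of a piRNA gene, against 50.9% of all bases of the clusters, a ratio of 0.667. The shortfall was not particular to the clusters. On the rest of chromosome IV 15 of 1336 summits (1.12%) were as near, against 1.90% of bases, a ratio of 0.590. None of the 67 thresholded summits there was as near. At 500 bp the ratio there was 1.08. Of the 27 thresholded summits only 3 were as near (11.1%, interval 2.35% to 29.2%), those at B0350.t1 (105 bp from 21ur-5229), upstream of unc-44 (117 bp from 21ur-3556) and in jac-1 (236 bp from 21ur-201). None of the 27 was within 100 bp, a distance that covered 31.9% of the bases and 95 of all 536 members (17.7%). The median distance to a piRNA gene was 569 bp over all members and 1243 bp over the thresholded ones, against 239 bp over the bases. By cluster, 24.4% of summits against 34.5% of bases were near in the first, and 43.1% against 62.0% in the second. The share was not below the bases everywhere: in the first cluster, replicate 1 alone had 35.1% of its summits within 250 bp, about the share of the bases, and replicate 2 had 27.9%. In the second cluster the replicates had 48.7% and 46.3%, both below 62.0%.

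**Figure D3:**
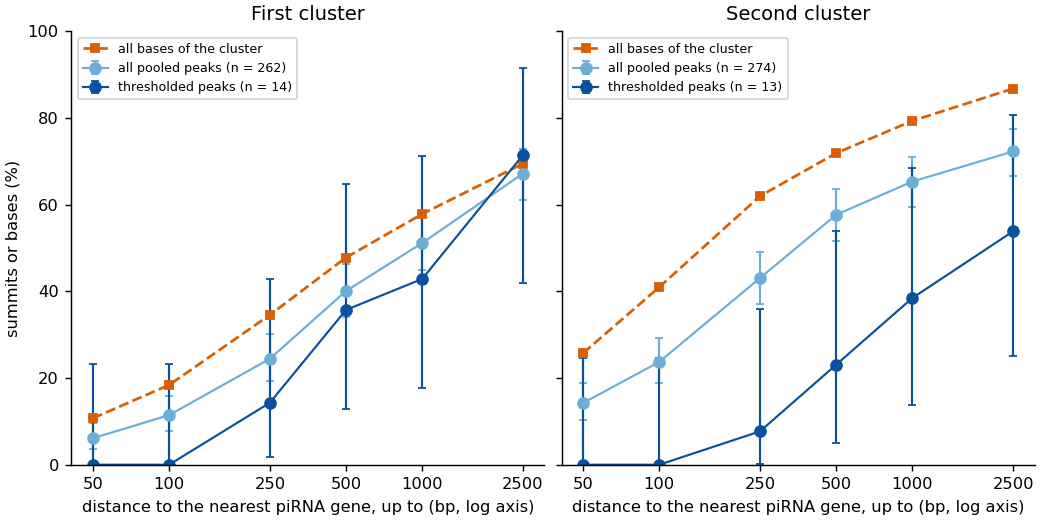
Share of summits within a given distance of a piRNA gene (log axis, bp) for all pooled peaks and for thresholded peaks, with exact 95% intervals for counting error, beside the share of all bases of the cluster (dashed). At 250 bp the values are 24.4% of summits against 34.5% of bases in the first cluster and 43.1% against 62.0% in the second.

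The stronger the peaks, the smaller was the share near a piRNA gene, in the pooled list and in both replicates. In the pooled list 42.9% of members below the median signal of the whole list, 25.6% of those above it but not thresholded, and 11.1% of the thresholded ones were within 250 bp. The same bands gave 48.5%, 37.7% and 10.7% in replicate 1 and 42.3%, 35.3% and 8.70% in replicate 2. Members near a piRNA gene had a median signal of 14.2 and the others 15.8. GC content moved with this: the median GC of the 101 bases around the summit was 33.7%, 38.6% and 48.5% over the same pooled bands, against 31.7% for all windows tiled along the clusters. Within windows under 30% GC, 52.3% of summits against 68.2% of tiled windows were near a piRNA gene, and from 30% to 40% GC 32.8% against 45.4%. From 40% to 50% GC the order was the other way, 29.9% against 25.8%, and from 50% GC upwards it was 5.45% against 15.9%. The rest of chromosome IV showed the same order. There 15 of 1336 summits (1.12%) were near a piRNA gene, as were 5 of 654 (0.765%) at or above the median signal and 0 of 67 thresholded ones. Median GC there was 38.6% over all peaks and 51.5% over thresholded ones, against 34.7% of tiled windows. The part of GC content in the piRNA result was not tested.

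**Figure D4:**
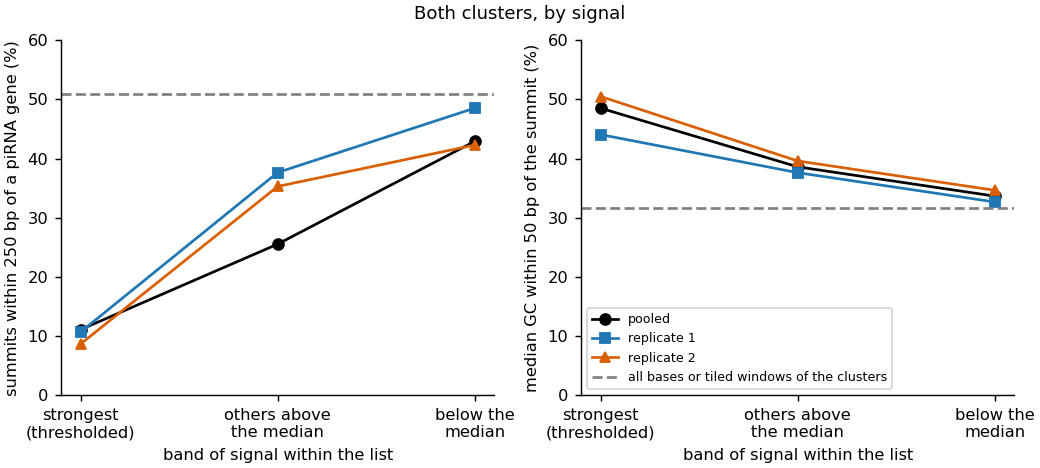
Share of summits within 250 bp of a piRNA gene (left, %) and median GC within 50 bp of the summit (right, %) by band of signal in the pooled list and in each replicate's own list, where the strongest band is the 721 strongest peaks; the dashed lines are all bases (50.9%) and tiled windows (31.7%) of the clusters. In each list the piRNA share is lowest and the GC content highest in the strongest band.

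The shortfall was also uneven over gene classes. Each summit was counted in a single class here, with promoter windows first. Among summits in promoter windows 16.3% were near a piRNA gene, against 38.6% of the promoter bases of the clusters. In introns the values were 38.8% against 55.1%, and at distal intergenic summits 49.7% against 61.8%. In coding exons they were nearly equal over both clusters, 31.4% (16 of 51) and 31.5%, but the clusters differed. The first had 26.1% (6 of 23) against 21.7% of bases, and the second 35.7% (10 of 28) against 42.8%. The shares on the 2 sides of the piRNA 5′ end were alike: 48 members lay in the 100 bp upstream of a piRNA 5′ end (8.96%, against 16.5% of bases) and 46 in the 100 bp downstream (8.58%, against 16.4%), and no thresholded summit lay in either.

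Only 12 members had their summit inside a piRNA gene, 2.24% of 536 against 3.75% of the bases, and none was thresholded. The strongest of them was at 21ur-4691, with a signal of 19.7 in the pooled list, 9.43 in replicate 1 and 11.1 in replicate 2, followed by 21ur-8341 with 18.1 and 21ur-2891 with 17.6. In 4 of the 12 no peak overlapped in replicate 2, and in the weakest, at 21ur-11987, the pooled signal was 12.4. The upstream motif, as printed above for 21ur-4691 and 21ur-2891, was present in 5 of the 12, and within 60 bp upstream of 48.5% of all piRNA genes of the clusters, at a median of 38 bp.

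Summits were more frequent in promoter windows than the bases were, inside the clusters as outside. Promoter windows held 178 of 536 member summits (33.2%) against 21.3% of bases, and 39.7% of the other chromosome IV summits against 28.3% of bases. Of the thresholded members 13 of 27 (48.1%, interval 28.7% to 68.1%) lay there, against 40 of 67 (59.7%) on the rest of the chromosome. None of the 27 lay in a coding exon, which made up 17.0% of the bases (a count of 0 in 27 has an upper bound of 12.8%), nor did any of the 67. Distal intergenic positions held 11 of the 27 (40.7%, interval 22.4% to 61.2%) and 13 of the 67 (19.4%, interval 10.8% to 30.9%), beside 40.2% and 22.5% of the bases. The larger intergenic share of thresholded peaks in the clusters thus stood beside a larger intergenic share of bases.

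**Figure D5:**
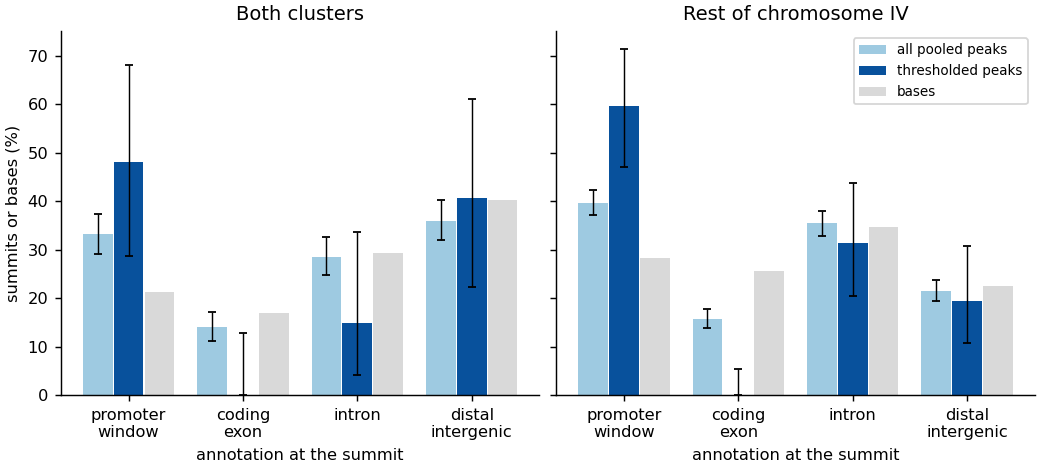
Share of summits (%) in promoter windows, coding exons, introns and distal intergenic positions for all pooled peaks and thresholded peaks, with exact 95% intervals for counting error, and share of bases, in the clusters (left) and on the rest of chromosome IV (right). The classes can overlap, and coding exons hold no thresholded summit on either side.

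Genes for non-coding RNAs other than piRNAs lay near many of the stronger members. A gene annotated simply as ncRNA, a class of mostly uncharacterised transcripts, was within 250 bp of 12 of the 27 thresholded summits (44.4%, interval 25.5% to 64.7%) and of 47 of all 536 (8.77%), against 3.10% of bases. On the rest of the chromosome the values were 20 of 67 (29.9%), 9.36% and 3.55%. In the replicates' own strongest peaks the cluster share was 46.4% and 39.1%. The 12 thresholded summits are not 12 separate sites. They include every thresholded peak of the cel-mir-52 stretch and both hil-7 peaks, and the interval counts each peak singly.

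tRNA genes, which RNA polymerase III transcribes from internal promoter elements, were within 250 bp of 16 members (2.99%, against 0.369% of bases), a share 8.09 times that of the bases; on the rest of the chromosome the ratio was 7.97. Their signals ranged from 13.3 to 44.5 with a median of 18.5. In the second cluster 8 of the 16 fell in one stretch, chrIV:16382198-16401352, around the tRNA genes named Y7A9D and Y65A5A. There the thresholded peak near Y7A9D.t3, which is also the promoter peak of Y7A9D.1, had 44.5 in the pooled list, 27.9 in replicate 1 and 16.4 in replicate 2, and that at Y65A5A.t2 had 33.0, 27.4 and 7.55. The tRNA sites of the clusters stood high mainly in replicate 1: of the peaks in the clusters that were among the 721 strongest of a replicate, 6 of 28 in replicate 1 and 0 of 23 in replicate 2 lay near a tRNA gene. Of the 6 in replicate 1, 5 lay in the second cluster. On the rest of the chromosome the counts were 3 of 64 in replicate 1 and 2 of 69 in replicate 2. snoRNA genes, which guide RNA modification, were near 5 members (0.933%, against 0.191% of bases). On the rest of the chromosome they were near 1.05% of peaks, against 0.221% of bases. Of the 5 the zen-4 site alone was thresholded, 1 of 27 thresholded members (3.70%, interval 0.0937% to 19.0%). On the rest of the chromosome 9 of the 67 thresholded peaks were near one (13.4%, interval 6.33% to 24.0%), and these intervals overlap. microRNA genes were near 4 members, the 2 overlapping peaks at cel-mir-52 and weaker ones near cel-mir-8201 (21.7) and cel-mir-1833 (12.8).

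Motifs were searched on both strands within 50 bp of the summit and compared with all windows of 101 bases tiled along the same regions. The piRNA motif core TGTTTCA was in 41 of 536 member windows (7.65%, interval 5.54% to 10.2%) against 13.3% of tiled windows, and in 2.32% of other chromosome IV windows against 3.80%. It was in 2 of the 27 thresholded windows, at the downstream hil-7 site and the weaker cel-mir-52 site. AAGTT, the core of the Myt1 family motif, was in 30.6% of member windows against 40.03% of tiled ones. It was in 1 of the 27 thresholded windows, at B0350.t1. AAAGTTT, which contains it, was in 7.28% against 9.85%. The order was the same on the rest of chromosome IV. There AAGTT was in 28.0% of windows against 36.5% of tiled ones, and in 4 of 67 thresholded windows. AAAGTTT was in 6.21% there against 8.50%. The A- and T-rich words were thus less frequent at summits than along the clusters, and the member windows were richer in GC, with a median of 36.6% against 31.7% of tiled windows; the part of base composition was not tested.

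GAGAGAG went the other way. It was in 36 member windows (6.72%, interval 4.75% to 9.18%) against 1.23% of tiled ones, and in 7 of the 27 thresholded windows (25.9%, interval 11.1% to 46.3%), 5 of them in the second cluster. On the rest of the chromosome it was in 5.24% of windows and in 11 of 67 thresholded ones (16.4%, interval 8.49% to 27.5%), against 1.35% of tiled windows. In the strongest peaks of replicate 1 alone the cluster share was 21.4% and in those of replicate 2 it was 21.7%. The sites at rho-1, lin-66, hil-7, set-15, jac-1 and Y7A9D.1 carry it, with the longest run at the farther rho-1 site. AGACGCA, chosen after the windows had been seen, was in 7 of the 27 thresholded windows (25.9%) and in 24 of all members (4.48%), against 0.881% of tiled windows. In peaks that played no part in its choice, it was in 6 of 67 thresholded windows on the rest of chromosome IV (8.96%, interval 3.36% to 18.5%) against 0.951% of tiled windows, and in 59 of 604 thresholded windows on the other chromosomes (9.77%). CACGTG was in 1.49% of member windows against 1.32%, GGTTCGA in 1.31% against 0.570%, and a run of 7 T (TTTTTTT) in 21.3% against 27.1%.

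How many members were matched in both replicates depended on how deep the lists were read. Of the 536 members, 128 (23.9%, interval 20.3% to 27.7%) were overlapped by one of the 12024 strongest peaks of both replicates, against 26.6% of the other chromosome IV peaks, and 82 by none of either. Replicate 1 matched 339 members and replicate 2 matched 243. With the full lists of 30000 peaks, 295 members (55.0%) were matched in both, against 60.9% of the other chromosome IV peaks. All 27 thresholded members were matched in both, as were all 67 on the rest of the chromosome, which the selection for agreement between replicates fixed and which is no support. Of the 27, 13 (48.1%, interval 28.7% to 68.1%) were matched within the 721 strongest of both replicates, 5 of 14 in the first cluster and 8 of 13 in the second, against 38 of 67 (56.7%, interval 44.0% to 68.8%) on the rest of the chromosome. Over the 295 members matched in both full lists, signals in the replicates had a Spearman's rho of 0.379, a description over peaks of the same libraries. Neighbouring members overlapped by the same replicate peak carry the same replicate value. The points of this rho and the matches above are therefore not all separate.

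Coding genes inside the clusters had a pooled summit in their promoter window in 175 of 941 cases (18.6%), against 22.4% of all 19973 protein-coding genes and 22.8% on the rest of chromosome IV. For thresholded summits the values were 17 of 941 (1.81%), 2.65% and 2.52%. Chemoreceptor genes, a large family of sensory receptors that is dense here, had 4 of 83 with a pooled summit (4.82%), sru-9, srw-95, str-156 and str-164, and 5 of 69 on the rest of the chromosome (7.25%); none had a thresholded one. Of 9 C-type lectin, 5 nuclear hormone receptor and 4 UDP-glucuronosyltransferase genes inside the clusters none had a pooled summit. There 1 of 7 F-box genes (fbxa-83) and 1 of 6 collagen genes (col-111) did. C-type lectins, nuclear hormone receptors and UDP-glucuronosyltransferases had 5 of 44, 6 of 28 and 1 of 8 on the rest of the chromosome. F-box genes had 3 of 20 and collagen genes 9 of 35 on that rest. The counts inside the clusters are too small to tell a difference.

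Of 29 genes on the list used here for the piRNA pathway, 27 were matched in the annotation, and none of these 27 lay in the clusters. The listed genes prg-2 and pics-1 were not matched, so their positions were not determined. Of the 27 matched genes, 8 (29.6%, against 22.4% of all coding genes) had a pooled summit in the promoter window. None had a thresholded one (background 2.65%). The highest signals were at pid-1, a factor of piRNA processing, with 24.1 in the pooled list, 8.84 in replicate 1 and 14.2 in replicate 2, and at snpc-4, which encodes the factor bound across the piRNA clusters in the germline, with 20.6, 9.10 and 8.18. csr-1, an Argonaute gene, had 16.6, attf-6 had 16.3 and unc-130, a forkhead gene, had 15.96, and tofu-1, snpc-1.1 and tofu-5 had 13.0 to 13.5. csr-1 and unc-130 had no overlapping peak in replicate 2, and tofu-1 and tofu-5 none in replicate 1. prg-1, the Piwi Argonaute gene, had no pooled summit in its promoter window. All 8 lay below 33.9, the lowest signal of a thresholded peak. This follows from none being thresholded, because the thresholded peaks are the strongest of the pooled list.

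At the 4 bounds of the clusters no strong peak decided membership. The nearest summits inside were 565 to 21871 bp from a bound, with signals of 13.1 at rfth-1, 17.6 at C25A8.5, 14.1 at dcap-2 and 22.5 at flp-17. The nearest outside were 76 to 17248 bp away, with 14.5 at ZK180.7, 23.0 at gldi-4, 14.7 at Y45F10A.7 and 14.0 at cnnm-1. None of the 8 was thresholded.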

How the data were processed

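Peak lists of 2 eGFP-ZTF-11 ChIP-seq libraries were used as deposited. Per the deposited listing of files, the authors called a relaxed list of 30000 peaks on each replicate with a control, a pooled list of 12024 on both, and kept 721 by the irreproducible discovery rate; these 721 were the strongest of the pooled list. Which aligner, caller and cutoff were used is not given in the sources used here. Each line holds the signal the authors deposited, whose scale is not stated, and a deposited −log10 q-value, a meaning taken from the file format. Read depth is unknown, so intervals (Clopper-Pearson, 95%) cover the counting of peaks only. They count neighbouring or overlapping peaks as separate. The control library was not analysed here.

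From these lists, summits were placed on WBcel235 with Ensembl release 115 (Python 3.11.15, pandas 2.3.3, numpy 2.4.6, scipy 1.17.1). Summit shares were set beside the exact share of bases, and motif shares beside tiled windows of 101 bp. Each replicate alone was represented by its 12024 strongest peaks, with 721 as its strongest. Overlap meant at least 1 bp. The members and lists were chosen with earlier results of these data known. Named were the 10 strongest members per cluster, every thresholded member, up to 8 pathway genes with a pooled summit, prg-1 and the peaks nearest each bound; members at piRNA, tRNA, snoRNA and microRNA genes and the family genes were named after their values were seen. The counting steps were tested on simulated data. No test between groups was possible with 1 group. The alternatives are given in the closing section.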

Additional observations from a re-analysis of the deposited data

How the results depend on the processing

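Of 46 alternatives over 8 results, 28 left the value within its interval and 18 moved it. The order against other peaks was not stable for 2 results: the thresholded share was 5.04% against 5.01% elsewhere on chromosome IV, but 4.47% against 5.27% in replicate 2 alone, 4.83% against 4.86% in replicate 1 alone, 5.01% against 5.08% in the ce10 lists, and below the 5.85% of all nuclear peaks outside the clusters, and the share of members above the median signal lay on both sides of an even split. No paired analysis was possible because there is only 1 group. Leaving out each replicate gave a thresholded share of 4.47% to 4.83%, a peak density ratio of 0.715 to 0.802, a thresholded density ratio of 0.607 to 0.797, 48.6% to 51.6% of members above the median of the other chromosome IV peaks (47.6% with both), a piRNA ratio of 0.738 to 0.826, a promoter share of 29.3% to 31.3% and a TGTTTCA share of 7.98% to 10.9%. With peaks counted as thresholded only at or above the median thresholded signal, 1.68% of members passed against 2.77% elsewhere on chromosome IV, and the thresholded density ratio was 0.443. The piRNA ratio was 0.472 for members above the median signal, 0.218 for thresholded ones, 0.556 at 100 bp and 0.789 at 500 bp. The promoter share was 24.6% with windows from 500 bp before to 100 bp after the 5′ end, 47.8% with 2000 bp to 500 bp and 48.1% for thresholded members. Replicate overlap was 19.6% with 50% reciprocal overlap, 14.6% with summits within 100 bp, 3.17% with the 721 strongest peaks and 55.0% with the full lists. The TGTTTCA share was 5.12% above the median signal, 4.29% within 25 bp and 14.6% within 100 bp. The wider and narrower windows change how much sequence counts; the cause of the other shifts was not tested. Bounds narrowed by 250 kb and the ce10 lists left every value they were run on within its interval. The nearness to piRNA genes in bands of GC, class and signal and the word AGACGCA were added after the data were seen. The unknown depth limits what the weak peaks can show.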
